A study of Mus musculus with 9 samples.

Results

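The genes described here build and fill the lysosome. They are 57 of the 54876 genes of the expression table, taken from its 22046 protein-coding genes: every gene whose symbol begins with Atp6v0, Atp6v1 or Atp6ap, and 31 named lysosomal genes. They comprised 9 genes of the V0 sector of the vacuolar proton pump (V-ATPase), 14 named for its V1 sector, 3 for its accessory proteins, 6 cathepsins, 7 glycosidases, 8 other hydrolases and activators, 7 membrane proteins and 3 transcription factors of lysosomal genes. The 14 include Atp6v1fnb, caught by the name pattern, a neighbour of Atp6v1f that is not a pump subunit.

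RNA was sequenced from MIN6, a beta cell line from a mouse insulinoma, labelled as C57BL/6. The cells had been kept for 24 h in medium (spelled DEME in the labels) holding 0.1 times (low), 1 times (standard) or 20 times (high) the usual arginine. Each medium had 3 libraries, 9 in all, from a single cell line, with no other allele or agent named. Nothing in the labels says that the replicates came from separate cultures, so the p-values describe the spread among these libraries alone, which may be technical. Values were FPKM, fragments per kilobase of gene scaled to library size. The length was that of all annotated exons merged for 98.01% of gene IDs shared with GENCODE M21, and not that of the transcripts expressed here. Levels of different genes, and ratios, shares and sums built from them, therefore compare only roughly. Differences are given on the log2(FPKM + 1) scale, and "higher" or "lower" in a count means an adjusted p under 0.05 in limma with Benjamini-Hochberg adjustment over the 12300 genes tested.

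Between 21550637 and 26300872 reads fell in genes per library. Of 10 beta cell markers, 9 reached 1 FPKM in at least 3 libraries, while the glucose transporter gene Slc2a2 averaged 0.0103 FPKM. Lysosomal genes are abundant in macrophages, and of 10 macrophage markers only C1qa reached 1 FPKM (mean 4.45), while Adgre1, Ptprc, Mrc1 and C1qb were listed at 0 in all 9 libraries. The summed level of this macrophage list was mainly C1qa, with Cd14 next at a mean of 0.194 FPKM. It was 1.88 to 2.65 FPKM in low, 4.36 to 5.68 in standard and 6.31 to 7.54 in high arginine. None of 6 fibroblast and none of 3 endothelial markers reached 1 FPKM in 3 libraries. Hormone genes of other islet cells also differed between the media: the summed delta and PP cell markers, mainly Sst, were 8718 to 11313 FPKM with low, 5434 to 6207 with standard and 5721 to 5913 with high arginine. The summed alpha cell markers, mainly Gcg, were 14.6 to 17.8, 23.5 to 29.8 and 25.0 to 28.3 FPKM in the same order. The part of these changes in the members' results was not tested. In bulk RNA, fewer cells of a type and less RNA per cell cannot be told apart.

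The V-ATPase pumps protons into lysosomes, endosomes and secretory granules, with a V1 sector in the cytosol that breaks down ATP and a V0 sector in the membrane that carries the protons. The acid it makes activates the cathepsins and other hydrolases of the lysosome, and in beta cells it also acidifies the insulin granule, where prohormone is processed. The transcription factors TFEB, TFE3 and MITF bind E-box sequences of the CLEAR type in promoters of many of these genes, and mTORC1, which senses amino acids at the lysosomal surface, holds TFEB and TFE3 in the cytosol when amino acids are ample.

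Because that binding is to DNA, the promoters of the members were searched for its core letters. RefSeq promoters (GRCm38.p6, 250 bases before to 50 after the start) were in the table for 46 of the 57 members, as 57 promoters. They were missing for Asah1, Atp6ap1l, Atp6v0a2, Atp6v0d2, Atp6v1b2, Atp6v1c1, Atp6v1g1, Atp6v1h, Ctsb, Galns and Npc1. The CLEAR letters GTCACGTG, read on either strand, stood in the promoters of 11 member genes, that is in 19.3% of member promoters and in 2.25% of all 32851 promoters of the table. The letters TCACGTGA, which overlap the first motif, were in 14.0% of member promoters and 0.974% of all. CACGTG, the E-box contained in both, was in 26.3% and 7.15%, and the M-box TCATGTGA in 5.26% and 0.986%. The 11 members with GTCACGTG are shown as the 30 bases around the match nearest the start, since they are the places where the letters of the known binding site occur. The stretches are 5′ to 3′ on the gene's own strand, with the motif in capitals (GTCACGTG, or CACGTGAC where it lies on the opposite strand):
Arsa: ttcaactcagtGTCACGTGttgtctgctcc
Atp6v0b: tgtgcgcggggGTCACGTGgggtcggcgca
Atp6v0d1: gccctactgcgGTCACGTGagacgcggtgc
Cln3: acgggtactGTCACGTGACccccaacctgc
Ctsa: atgcagatgctCACGTGACcagagctacac
Ctsd: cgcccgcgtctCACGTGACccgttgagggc
Gla: gtgagatctcgGTCACGTGagcaactctcg
Glb1: gctgcttctgaGTCACGTGgcctacagagg
Lamp1: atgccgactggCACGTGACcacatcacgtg
Mcoln1: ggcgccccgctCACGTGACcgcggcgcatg
Sgsh: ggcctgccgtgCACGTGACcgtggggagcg
Their positions were Arsa chr15:89477424-89477453 (minus strand), Atp6v0b chr4:117887349-117887378 (minus strand), Atp6v0d1 chr8:105566051-105566080 (minus strand), Cln3 chr7:126583339-126583368 (minus strand), Ctsa chr2:164833767-164833796 (plus strand), Ctsd chr7:142387907-142387936 (minus strand), Gla chrX:134601183-134601212 (minus strand), Glb1 chr9:114401017-114401046 (plus strand), Lamp1 chr8:13159122-13159151 (plus strand), Mcoln1 chr8:3500463-3500492 (plus strand), and Sgsh chr11:119355521-119355550 (minus strand). Ctsa, Cln3, Ctsd and Mcoln1 each hold 2 matches, which in Cln3 overlap on opposite strands and are both in capitals, while in the other 3 genes the second match lies outside the stretch shown. GTCACGTG was in 3 of 6 membrane protein genes, 2 of 5 cathepsins, 2 of 6 other hydrolases, 2 of 7 glycosidases, 2 of 7 V0 genes and 0 of 10 V1 genes with a promoter. These 10 include Atp6v1b1, Atp6v1c2, Atp6v1e2, Atp6v1fnb and Atp6v1g3, whose levels were too low to test. They lack the tested Atp6v1b2, Atp6v1c1, Atp6v1g1 and Atp6v1h. TCACGTGA was in 1 of the 10, Atp6v1a. The promoters of Gusb and Npc2 were in the table without GTCACGTG, which says only that these letters are not in that window. A match is a string of letters and not a measured binding site.

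Low arginine was accompanied by lower levels of most of the lysosomal genes followed here. Of the 49 members that could be tested, 36 fell and 1 rose against standard arginine, where 31.9% of all genes tested fell and 30.3% rose. The members' median log2 change was -0.47, against 0.00 for all genes, and the changes ran from -1.81 for Gusb to 0.19 for Mitf, with 43 of 49 below 0. Every member of the glycosidase and cathepsin classes fell (7 of 7, median -0.77, and 6 of 6, median -0.70). The other hydrolases fell in 7 of 8 (median -0.57), the membrane proteins in 5 of 7 (-0.31), the accessory proteins in 2 of 2 (-0.58) and the V0 sector in 5 of 7 (-0.60). Of the transcription factors, 1 of 3 fell (-0.14). In the V1 sector 3 of 9 fell and 1 rose, with a median of -0.09. The change on the log2(FPKM + 1) scale was under -1 in 6 of the members that fell, against 3.28% of all genes. These were Gusb, Npc2, Man2b1, Arsa, Ctsl and Ctsf. Cln3, Arsb and Ctsa, outside that list, stood at 41.6%, 48.8% and 49.3% of their standard means in low arginine. All 49 tested members had at least 1 FPKM in all 9 libraries, so none passed the filter through one medium alone. The 3 low and 3 standard libraries did not overlap in 35 members that were lower and 1 that was higher, against 33.4% and 32% of all genes. Of the 40 tested members with a promoter, GTCACGTG was in 10 of the 33 that fell and in 1 of the other 7, Sgsh. Promoters were missing for Asah1, Ctsb and Galns, which fell. They were also missing for Atp6v0a2, Atp6v1b2, Atp6v1c1, Atp6v1g1, Atp6v1h and Npc1, which did not. A larger part of the members that did not fall was thus not searched, and a link between motif and fall was not tested. Rescaled to TPM, where the median of all genes moved to 0.12 and 61.6% of calls were rises against 48.7%, 33 members fell and 5 rose, with a median of -0.35.

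**Figure D1:**
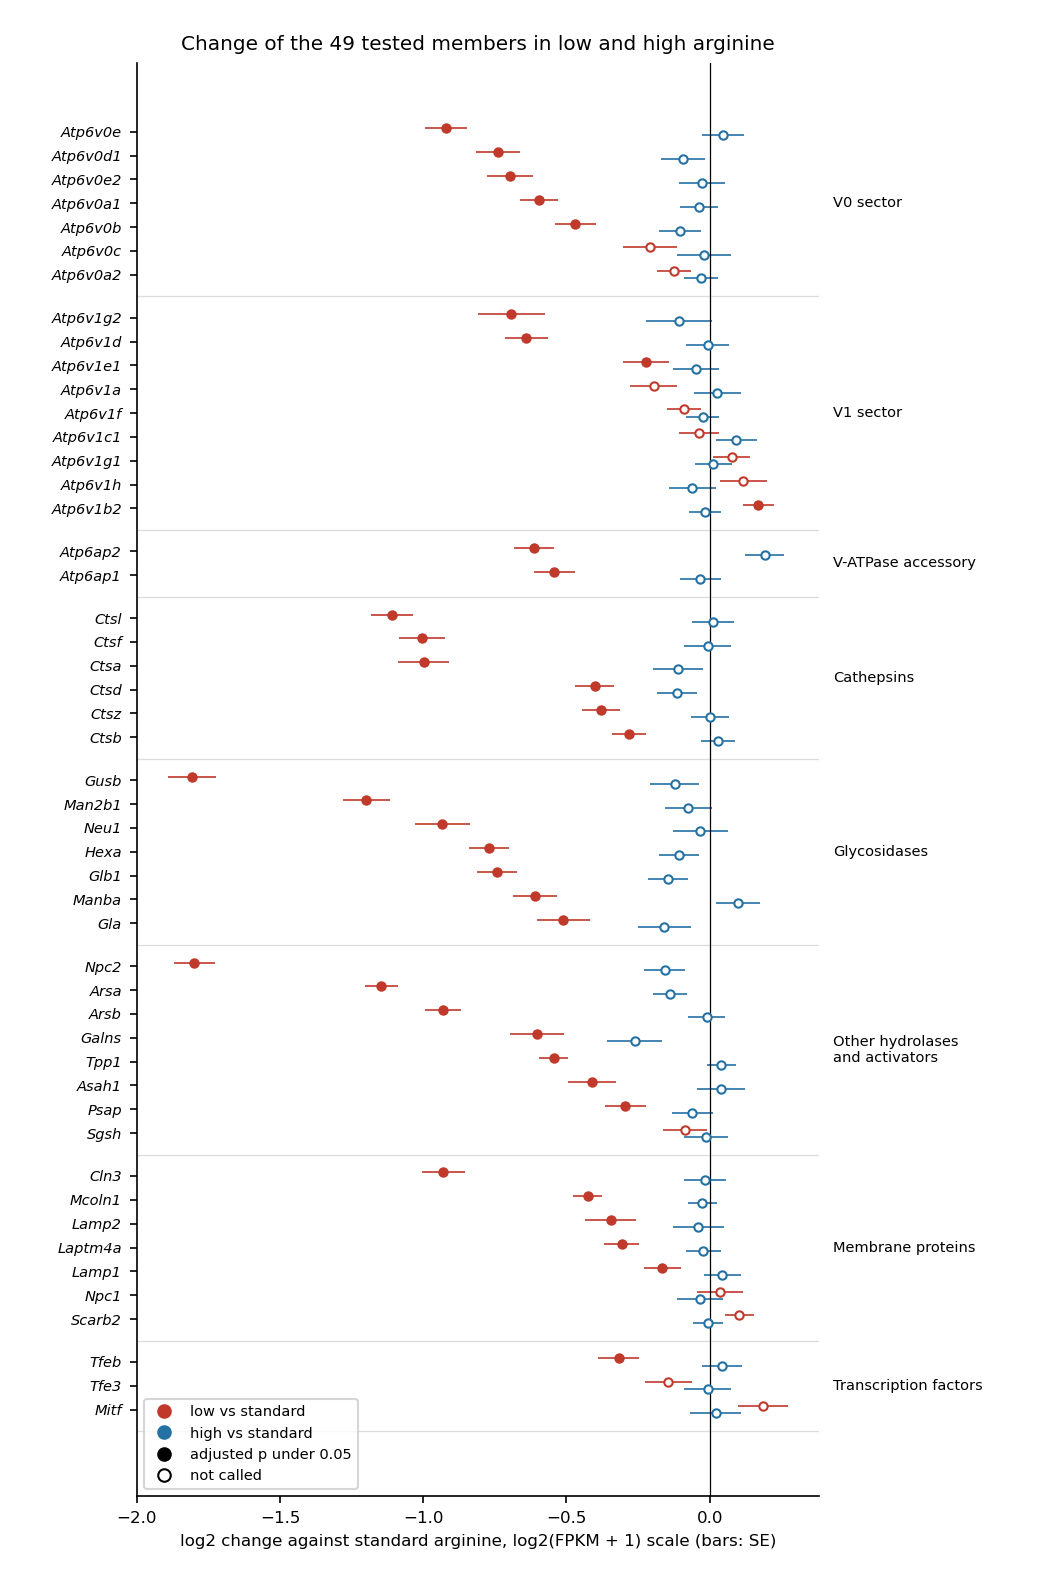
Log2 change in low (red) and in high (blue) against standard arginine for each of the 49 tested members, by class, on the log2(FPKM + 1) scale with standard errors. Filled points passed an adjusted p under 0.05 in limma. In low arginine all cathepsins and glycosidases lie left of 0, and the V1 subunits scatter around it.

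The V0 sector, which sits in the membrane, fell in most of its subunits. Atp6v0e, a small membrane subunit of uncertain role at chr17:26676396-26699644 (GRCm38), stood at 30.7, 35.6 and 34.8 FPKM with low arginine, 68.4, 67.0 and 58.7 with standard and 68.1, 66.3 and 65.7 with high arginine. All 3 low libraries were below the other 6, at 52.1% of the standard mean, and the log2 change was -0.92 (SE 0.07, adjusted p = 2.10e-06). Atp6v0d1, the subunit that joins the proton ring to the central stalk, stood at 46.4, 46.2 and 43.8 FPKM with low arginine, 81.8, 81.6 and 67.2 with standard and 75.7, 69.4 and 70.1 with high arginine. It was lower in every low library, by a log2 change of -0.74 (SE 0.08, adjusted p = 1.53e-05). Atp6v0e2, the second gene for the e subunit, stood at 73.5, 75.6 and 69.7 FPKM with low arginine, 125, 125 and 106 with standard and 127, 113 and 109 with high arginine. The low libraries again lay apart from all others, with a change of -0.70 (SE 0.08, adjusted p = 2.88e-05). Atp6v0a1, the form of the large a subunit best known from neurons and endocrine cells, stood at 33.1, 31.0 and 30.6 FPKM with low arginine, 50.6, 49.5 and 44.8 with standard and 50.1, 46.3 and 44.6 with high arginine. Its change was -0.60 (SE 0.07, adjusted p = 2.25e-05), with no overlap between low and the other libraries. Atp6v0b, a proteolipid of the ring, also fell, from 195 ± 18.2 to 140.3 ± 2.18 FPKM (SD, n = 3), a log2 change of -0.47. Atp6v0c, the main proteolipid of the ring, did not pass the test, at 33.8, 34.0 and 29.7 FPKM with low arginine, 41.2, 40.1 and 32.3 with standard and 39.4, 37.5 and 34.6 with high arginine (log2 change -0.21, SE 0.09, adjusted p = 0.0765). It was called lower without standard replicate 3 (-0.32), with array weights (-0.31), with voom weights (-0.21) and with the replicate block (-0.21). Its reads could be split with the near-identical pseudogene Atp6v0c-ps2, which averaged 3.51 FPKM. Atp6v0a2, an a subunit of the Golgi and endosomes, did not pass either (-0.12, adjusted p = 0.0937), but was called lower without low replicate 2 (-0.17), with the replicate block (-0.12) and with the GC and length trend removed (-0.13).

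The a subunit, which anchors the fixed stalk, has several isoform genes, whose shares are given as a description. Atp6v0a1 made up 69.6% ± 1.54 of the FPKM of the a subunit genes in the low (SD, n = 3), 74.6% ± 0.524 in the standard and 74.2% ± 0.978 in the high medium. The share of Atp6v0a2 was 26.4% ± 1.64 in low and 20.3% ± 0.678 in standard arginine, with no overlap between the groups. The remainder was almost all Tcirg1, the a3 subunit gene, at 3.95% in low and 5.12% in standard arginine. An exact two-sided permutation test of the ratio of Atp6v0a1 to Atp6v0a2, a pair picked after the values were seen, gave p = 0.1, the smallest that 3 against 3 libraries allow. It was 1 of 6 such ratio tests, and its Benjamini-Hochberg adjusted p was 0.2.

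In the V1 sector 3 stalk subunits fell, 1 subunit of the catalytic ring rose and 5 subunits did not pass the test. Atp6v1d, part of the rotating stalk, stood at 19.5, 21.2 and 21.8 FPKM with low arginine, 30.2, 34.9 and 33.9 with standard and 30.1, 34.6 and 33.8 with high arginine. Each low library was below each other library, and the change was -0.64 (SE 0.08, adjusted p = 3.30e-05). Atp6v1g2, a G subunit form of the fixed stalk typical of neurons, stood at 5.33, 7.34 and 7.22 FPKM with low arginine, 12.3, 11.2 and 10.3 with standard and 11.9, 9.56 and 9.77 with high arginine. It was lower in all 3 low libraries, with a log2 change of -0.69 (SE 0.12, adjusted p = 0.000433). Its exons share 5.74% of their bases with Nfkbil1 on the opposite strand, a gene at 8.82 FPKM, and the counting's strand setting was not given in the sources used here. Atp6v1g2 took 3.48% ± 0.400 of the G subunit FPKM in low and 6.13% ± 0.730 in standard arginine, while Atp6v1g1 took nearly all the rest.

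Atp6v1b2, the B subunit of the catalytic ring outside kidney and related tissues, was the only member that rose in the values reported. With it, Atp6v1g1, Atp6v1h, Scarb2 and Mitf were called higher in TPM, and Atp6v1g1, Atp6v1f, Scarb2 and Psap after quantile normalization. It lies at chr8:69088646-69113711 (GRCm38) and stood at 67.3, 71.6 and 66.7 FPKM with low arginine, 60.7, 63.7 and 58.0 with standard and 59.8, 61.4 and 59.1 with high arginine. The low libraries were all above the others, but the difference was small, at 0.17 (SE 0.05, adjusted p = 0.0199), and without low replicate 2 it was 0.14 with an adjusted p of 0.083. Atp6v1e1, a stalk subunit, stood at 21.7, 27.0 and 25.5 FPKM with low arginine, 27.7, 30.5 and 28.5 with standard and 26.2, 29.3 and 28.4 with high arginine. Low libraries lay below the standard ones, with -0.22 (SE 0.08, adjusted p = 0.0341). The call was lost under several alternatives, among them TPM (-0.10) and leaving out low replicate 1 (-0.13), standard replicate 2 (-0.18) or standard replicate 3 (-0.23). Atp6v1a, the catalytic A subunit, was at -0.20 (adjusted p = 0.061). It was called lower in 6 of 19 alternatives, among them without standard replicate 1 (-0.25), without high replicate 1 (-0.20) and with the GC and length trend removed (-0.30), and stood at 0.0034 after quantile normalization. Atp6v1c1, Atp6v1f, Atp6v1g1 and Atp6v1h, the C, F, G and H subunits, did not pass the test, with log2 changes of -0.04, -0.09, 0.08 and 0.12. Their calls depended on the scaling: Atp6v1g1 was called higher in TPM (0.20), after quantile normalization (0.30) and with the GC and length trend removed (0.13). Atp6v1h was called higher in TPM (0.25), with array weights (0.21) and with the replicate block (0.12). Atp6v1f was called higher after quantile normalization (0.16) and lower with array weights (-0.15), and Atp6v1c1 lower with the GC and length trend removed (-0.14). Summed over its genes, V1 was 536 ± 23.2 FPKM in low and 559.8 ± 15.6 in standard arginine (SD, n = 3), and the libraries' ranges overlapped. The V0 sum was 368 ± 7.57 against 555 ± 50.8 FPKM, and the groups did not overlap. These sums were not tested.

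**Figure D2:**
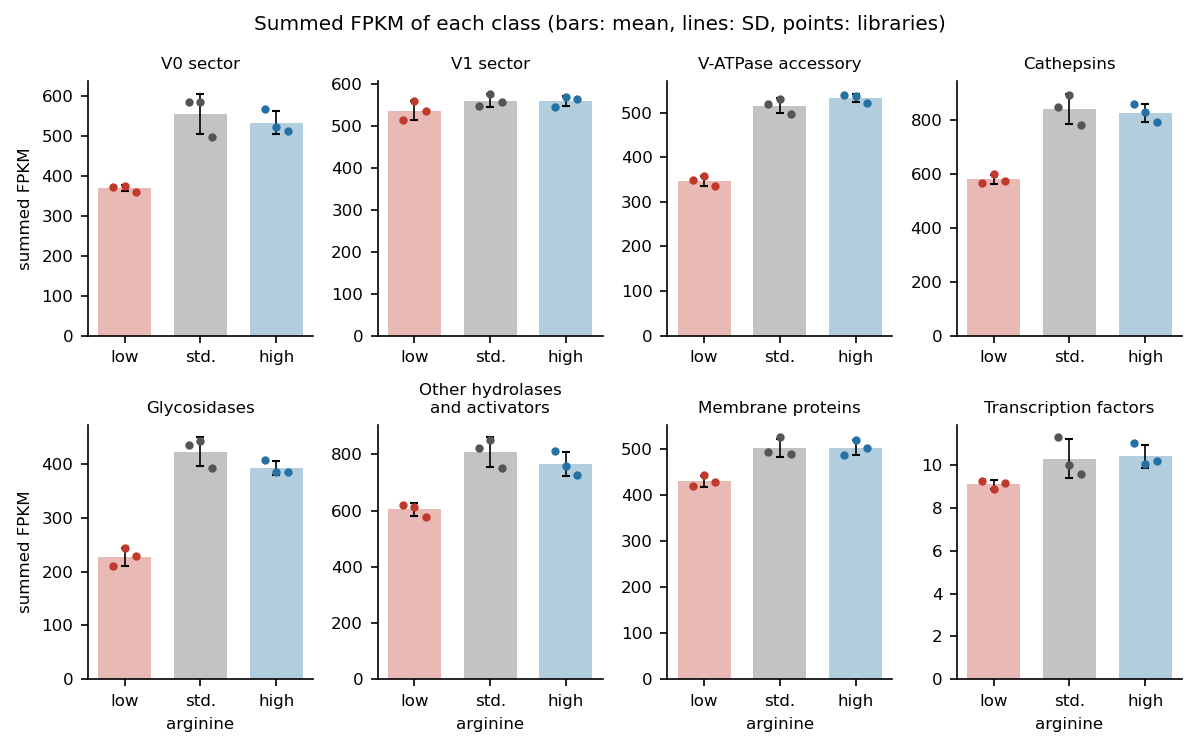
Summed FPKM of each class per library (points) with the mean (bars) and SD (lines) in low, standard and high arginine. The V1 sums of the 3 media overlap, while those of V0, cathepsins and glycosidases in low arginine stay below both other media.

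Both accessory proteins that were expressed fell. Atp6ap1, or Ac45, a V0 assembly factor, stood at 238, 236 and 221 FPKM with low arginine, 351, 355 and 309 with standard and 354, 326 and 312 with high arginine. The low libraries were all below the others, with a change of -0.54 (SE 0.07, adjusted p = 7.49e-05). Atp6ap2, the prorenin receptor that also aids pump assembly, stood at 111, 122 and 115 FPKM with low arginine, 168, 176 and 189 with standard and 188, 211 and 211 with high arginine. Low libraries again lay apart, at -0.61 (SE 0.07, adjusted p = 2.39e-05).

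The cathepsins, proteases of the lysosome, all fell. Ctsl, a cysteine protease at chr13:64359337-64370890 (GRCm38), stood at 42.5, 50.3 and 50.2 FPKM with low arginine, 97.4, 108 and 106 with standard and 101, 108 and 105 with high arginine. The low libraries were all below the rest, at 45.9% of the standard mean, and the log2 change was -1.11 (SE 0.07, adjusted p = 5.66e-07). Ctsf, another cysteine protease, stood at 27.2, 31.8 and 28.7 FPKM with low arginine, 61.9, 61.8 and 55.1 with standard and 64.1, 59.8 and 54.1 with high arginine. Its change was -1.004 (SE 0.08, adjusted p = 2.15e-06), again without overlap. Ctsa, a carboxypeptidase that also protects beta-galactosidase and neuraminidase, stood at 33.8, 40.3 and 36.1 FPKM with low arginine, 75.9, 81.1 and 66.4 with standard and 72.6, 69.7 and 64.1 with high arginine. Its log2 change was -0.999 (SE 0.09, adjusted p = 3.99e-06), and 6.87% of its exon bases are shared with Neurl2, at 2.32 FPKM. Ctsd, the aspartic protease of the lysosome, was lower by less, standing at 110.1, 106 and 105 FPKM with low arginine, 147, 151 and 129 with standard and 139, 129 and 126 with high arginine. No low library reached another medium's value (-0.40, SE 0.07, adjusted p = 0.000486). Ctsd shares 34.4% of its exon bases with Gm49369 on the same strand, at 0.0 FPKM, so its value is uncertain. Ctsz and Ctsb, cysteine proteases, fell from 362 ± 28.1 to 278 ± 7.09 and from 99.3 ± 5.63 to 81.5 ± 2.96 FPKM (SD, n = 3), and both calls were lost under quantile normalization (-0.09 each). Ctsb shares 12.8% of its exon bases with Fdft1 on the opposite strand, at 29.9 FPKM, so its value is uncertain.

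All 7 glycosidases, which cut sugars from glycoproteins and glycolipids, fell. Gusb, beta-glucuronidase, at chr5:129989011-130003049 (GRCm38), stood at 11.1, 14.2 and 13.7 FPKM with low arginine, 48.3, 50.1 and 45.1 with standard and 45.7, 42.1 and 43.7 with high arginine. With Npc2 it had the most negative change of the members, -1.81 (SE 0.09, adjusted p = 6.03e-08), and low arginine held 27.2% of its standard mean. Man2b1, lysosomal alpha-mannosidase, stood at 8.76, 10.9 and 9.94 FPKM with low arginine, 25.8, 23.5 and 22.5 with standard and 23.8, 22.9 and 21.2 with high arginine. All low libraries lay below the rest (-1.20, SE 0.08, adjusted p = 6.74e-07). Hexa, the alpha chain of beta-hexosaminidase, was the most abundant glycosidase per length, at 142, 164 and 155 FPKM with low arginine, 273, 273 and 241 with standard and 251, 238 and 242 with high arginine. It was lower in every low library (-0.77, SE 0.07, adjusted p = 5.34e-06). Glb1, beta-galactosidase, stood at 22.7, 26.2 and 24.6 FPKM with low arginine, 40.7, 44.3 and 40.0 with standard and 39.8, 37.6 and 35.4 with high arginine. Its change was -0.74 (SE 0.07, adjusted p = 6.60e-06), and it shares 5.49% of its exon bases with Tmppe on the same strand, at 6.16 FPKM. Neu1, a sialidase, Manba, beta-mannosidase, and Gla, alpha-galactosidase A, fell by 0.93, 0.61 and 0.51 on the log2(FPKM + 1) scale. That scale understates the fall of Manba, a low gene at 1.21 FPKM in low and 2.38 in standard arginine. Manba stood at 51.0% of its standard mean, against 58.5% for Hexa and 58.8% for Glb1.

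**Figure D3:**
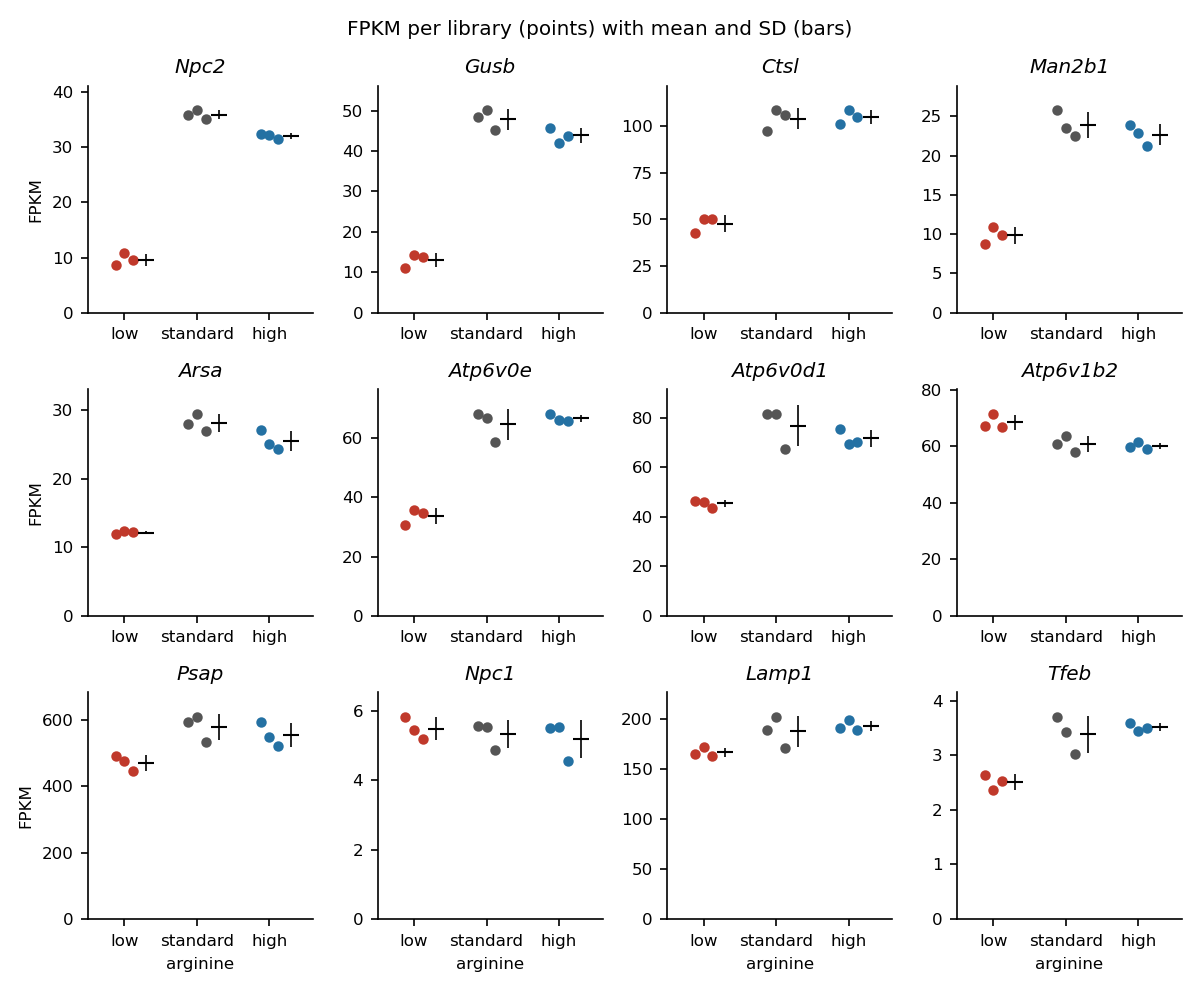
FPKM per library (points, replicates 1 to 3 from left to right) with the mean (horizontal mark) and SD (vertical line) for 12 members in low, standard and high arginine; each panel starts at 0 and has its own scale. Npc2, Gusb, Man2b1, Ctsl and Arsa in low arginine lie below both other media, while Npc1 does not separate by medium.

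Among the other hydrolases and activators, 7 of 8 fell. Npc2, the soluble carrier that hands cholesterol to the membrane protein Npc1, at chr12:84754562-84773152 (GRCm38), stood at 8.56, 10.8 and 9.61 FPKM with low arginine, 35.9, 36.7 and 35.1 with standard and 32.5, 32.3 and 31.5 with high arginine. Low arginine held 26.9% of its standard mean, with no overlap, and the change was -1.80 (SE 0.07, adjusted p = 2.17e-08). Npc1 itself, described in full after its values were seen, stood at 5.83, 5.45 and 5.19 FPKM with low arginine, 5.58, 5.55 and 4.87 with standard and 5.50, 5.52 and 4.55 with high arginine. It did not pass the test (0.04, SE 0.08, adjusted p = 0.705), and the 3 media overlap. The ratio of Npc2 to Npc1 was 1.47, 1.97 and 1.85 in low and 6.44, 6.62 and 7.21 in standard arginine, with p = 0.1 (adjusted 0.2 over 6 ratio tests) in an exact two-sided permutation test, the smallest unadjusted p this design allows. Npc1 shares 4.52% of its exon bases with Rmc1, at 5.81 FPKM. Arsa, arylsulfatase A, which breaks down sulfatide, stood at 12.0, 12.3 and 12.2 FPKM with low arginine, 27.9, 29.5 and 27.0 with standard and 27.1, 25.0 and 24.3 with high arginine. It was at 43.2% of its standard mean in low arginine (-1.15, SE 0.06, adjusted p = 9.12e-08). Arsb, arylsulfatase B, stood at 6.69, 6.58 and 5.98 FPKM with low arginine, 12.9, 13.9 and 12.6 with standard and 13.5, 13.3 and 12.3 with high arginine. Its change was -0.93 (SE 0.06, adjusted p = 6.48e-07), with every low library below the rest. Tpp1, tripeptidyl peptidase 1, stood at 18.8, 19.8 and 19.6 FPKM with low arginine, 28.5, 29.6 and 28.0 with standard and 29.0, 30.4 and 29.4 with high arginine. It fell in all 3 low libraries (-0.54, SE 0.05, adjusted p = 5.75e-06).

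Galns, a sulfatase, and Asah1, acid ceramidase, fell by 0.60 and 0.41 on the log2 scale. Psap, which yields the saposins that help hydrolases reach their lipids, was the most abundant member per length, at 491, 477 and 444 FPKM with low arginine, 593, 609 and 532 with standard and 592, 548 and 521 with high arginine. The low libraries lay below the standard ones (-0.29, SE 0.07, adjusted p = 0.00446), but after quantile normalization Psap was higher in low arginine (0.13, adjusted p = 0.0294). Sgsh, heparan N-sulfatase, did not pass (-0.09, adjusted p = 0.344).

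The membrane proteins fell in 5 of 7. Cln3, a protein mutated in juvenile Batten disease, stood at 2.02, 1.69 and 1.77 FPKM with low arginine, 4.70, 4.43 and 4.03 with standard and 4.66, 4.12 and 4.19 with high arginine. Low arginine held 41.6% of its standard mean (-0.93, SE 0.07, adjusted p = 2.11e-06), with no overlap. Mcoln1, a cation channel that releases lysosomal calcium, stood at 8.32, 8.01 and 8.05 FPKM with low arginine, 11.3, 11.6 and 10.8 with standard and 11.4, 11.0 and 10.8 with high arginine. The low libraries were all lower (-0.43, SE 0.05, adjusted p = 4.05e-05). Laptm4a, a transporter-like protein of late endosomes and lysosomes, stood at 170.2, 187 and 184 FPKM with low arginine, 215, 232 and 224 with standard and 208, 229 and 224 with high arginine. Its change was -0.31 (SE 0.06, adjusted p = 0.0012), and the call was lost under quantile normalization (-0.12). Lamp2, a glycoprotein of the lysosomal membrane that also serves autophagy, stood at 19.9, 22.5 and 21.4 FPKM with low arginine, 25.3, 26.0 and 30.8 with standard and 23.8, 28.1 and 27.8 with high arginine. Its change was -0.35 (SE 0.09, adjusted p = 0.00585), and it lost its call in TPM (-0.23). Lamp1, the other main glycoprotein, stood at 165, 172 and 163 FPKM with low arginine, 189, 202 and 171 with standard and 190.3, 199 and 189 with high arginine. The low and standard groups overlap, and the change was -0.17 (SE 0.06, adjusted p = 0.0449). The call was lost when any single library other than standard replicate 3 was left out (-0.19 to -0.11), and the direction turned under quantile normalization (0.05). Its exon bases overlap Grtp1, at 5.44 FPKM, over 9.31%. Scarb2, the receptor that carries glucocerebrosidase to lysosomes, did not pass (0.10, adjusted p = 0.105), but was called higher in TPM and after quantile normalization (0.23 each).

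The 3 transcription factors were at low levels, and Tfeb alone passed the test. Tfeb, at chr17:47737030-47792419 (GRCm38), stood at 2.65, 2.36 and 2.53 FPKM with low arginine, 3.71, 3.42 and 3.03 with standard and 3.59, 3.44 and 3.50 with high arginine. The low libraries were below all others (-0.32, SE 0.07, adjusted p = 0.00263). Tfe3 stood at 4.80, 5.17 and 5.05 FPKM with low arginine, 6.39, 5.42 and 5.16 with standard and 6.23, 5.25 and 5.36 with high arginine, and its low and standard groups overlap (-0.14, SE 0.08, adjusted p = 0.148, not called, but called lower with array weights at -0.19). Mitf stood at 1.81, 1.35 and 1.58 FPKM with low arginine, 1.22, 1.18 and 1.40 with standard and 1.22, 1.35 and 1.32 with high arginine and did not pass (0.19, SE 0.09, adjusted p = 0.0877). It was called higher in TPM (0.35), with voom weights (0.31) and without low replicate 2 (0.25). RNA levels do not report where TFEB or TFE3 protein sits, which was not measured.

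The remaining 8 members were below the filter and were not tested. Atp6v0d2 and Atp6v1g3, tissue-restricted forms of the d and G subunits, had 0 reads in all libraries. Atp6v0a4 and Atp6v1b1, forms best known from kidney, Atp6v1e2, known from testis, Atp6ap1l and Atp6v1fnb had at most 6 reads in any library. Atp6v1c2, a C subunit form, had 18 to 55 reads, at 0.826 ± 0.137 FPKM in low, 0.530 ± 0.161 in the standard and 0.642 ± 0.0768 in the high medium (SD, n = 3). Its libraries were not tested, and the low value of replicate 2 lies below the standard value of replicate 1. It shares exon bases with Pdia6, at 464 FPKM. In all, 22 members share exon bases with another gene, and in 9 of them that gene averaged at least 1 FPKM.

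Lysosomal genes outside the member list were read from lists written from textbook knowledge. In low against standard arginine, 20 of 25 tested other hydrolases and their partners fell and 2 rose (median -0.53), where 31.9% of all genes fell and 30.3% rose. Of 20 other membrane proteins 13 fell and 3 rose (-0.30), and of 18 sorting and delivery genes 11 fell and 5 rose (-0.26). Of 10 V-ATPase genes outside the name pattern, assembly factors and regulators, 6 fell, Tcirg1 among them, and 1 rose (-0.34). The list of genes that control TFEB and TFE3, mainly Rag, Lamtor and mTORC1 components, had 6 of 17 lower, 5 higher and a median of 0.02, shares near those of all genes. Among the most negative changes were those of Naglu, an N-acetylglucosaminidase of heparan sulfate (-1.58, SE 0.10, adjusted p = 3.71e-07) and Gm2a, the GM2 activator (-1.52, SE 0.08, adjusted p = 1.17e-07). Naglu fell from 102 ± 11.1 to 33.4 ± 2.23 FPKM (SD, n = 3). The largest rises were in Ppp3ca, a calcineurin subunit (0.77, SE 0.07, adjusted p = 5.18e-06), Lmbrd1, a cobalamin transport protein (0.56, SE 0.07, adjusted p = 3.90e-05), and Naaa, an acid amidase (0.52, SE 0.08, adjusted p = 0.000151). For high against standard arginine limma gave 0 calls in all these lists, with 13 of 90 genes at an unadjusted p under 0.05, against 14.3% of all genes.

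**Figure D4:**
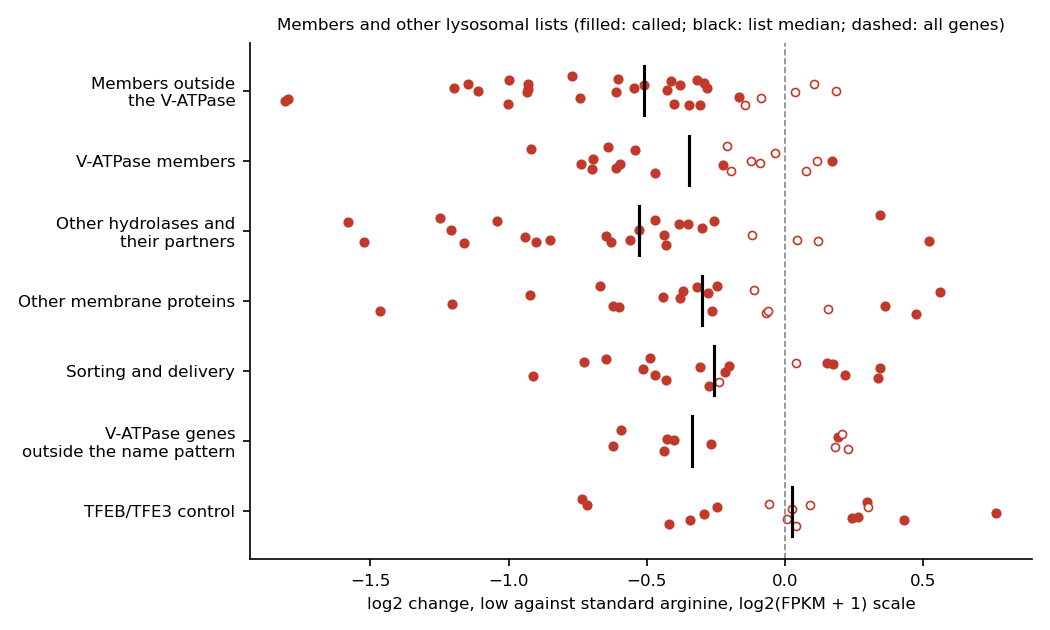
Log2 change in low against standard arginine for each tested member, split by V-ATPase, and each tested gene of the 5 comparison lists, on the log2(FPKM + 1) scale; filled points passed an adjusted p under 0.05 in limma, black marks are list medians and the dashed line is the median of all genes. The list of other hydrolases has its median at -0.53 and the TFEB/TFE3 control list at 0.02.

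No member was called between high and standard arginine in the values reported. limma called 0 of 49 (smallest adjusted p 0.246), where 0.138% of all genes tested were higher and 0.171% lower. The unadjusted p was under 0.05 in 4 members, against 14.3% of all genes: Atp6ap2 (0.19), Galns (-0.26), Arsa (-0.14) and Npc2 (-0.16). limma with voom weights on rebuilt reads called 0, and with array weights 1 higher (Atp6ap2) and 3 lower (Ctsd, Galns and Arsa). The log2 changes ran from -0.26 to 0.19, with a median of -0.02. The groups did not overlap in 3 members that were lower, Gla, Glb1 and Npc2, and in 0 that were higher, where 8.14% and 10.4% of all genes did not overlap. Without standard replicate 3, which was the lowest of its group in 35 of 49 members, the median was -0.06.

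The contrast of the high with the low medium tests at the same time whether the responses to low and to high arginine differ. It uses the libraries of the comparisons above again and adds no independent samples. It called 36 members higher and 1 lower, against 32.3% and 29.2% of all genes, with a median of 0.38. In TPM, 39.5% of all calls were higher against 52.5%, with 32 members higher and 5 lower. Npc2 was higher in high arginine by 1.64 (SE 0.07, adjusted p = 3.59e-08) and Gusb by 1.69 (SE 0.09, adjusted p = 8.93e-08). Atp6v1b2 was the one lower member (-0.19, SE 0.05, adjusted p = 0.0129), and without low replicate 2 it was -0.15 with an adjusted p of 0.0581. Atp6v1a, not called in low against standard arginine, was higher here (0.22, SE 0.08, adjusted p = 0.0375), but lost the call in TPM (0.10), under quantile normalization (0.00), with no filter, and without low replicate 1 (0.19), low replicate 3 (0.22), high replicate 2 (0.18) or high replicate 3 (0.19). With the replicate block, 39 members were higher and 3 lower: Atp6v0c (0.19, adjusted p = 0.0092), Atp6v1e1 (0.18, adjusted p = 0.0128) and Atp6v1c1 (0.13, adjusted p = 0.027) were also called higher, and Atp6v1h (-0.18, adjusted p = 0.00639) and Scarb2 (-0.11, adjusted p = 0.0477) also lower. Without the block Atp6v1e1 was not called (0.18, adjusted p = 0.0833). The groups did not overlap in 38 members that were higher and 2 that were lower, Atp6v1b2 and Scarb2, against 35.3% and 33.1% of all genes.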

How the data were processed

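Per the file headers, the authors deposited FPKM per gene for each library, beside a gene length. Libraries came from a directional kit, per the labels' protocols. The submitters' processing notes name CASAVA 1.8, HISAT2 2.0.5, featureCounts 1.5.0-p3 and the build mm9, but of 54495 gene IDs shared with GENCODE M21, 98.33% carry GRCm38 starts and ends, so coordinates are given as GRCm38. The strand setting was not given in the sources used here. FPKM times length gave whole reads within 0.01 in 100% of values, so reads in genes (21550637 to 26300872 per library) were rebuilt for depth and for 1 alternative. The library size implied by the FPKM differed by medium. Divided by the reads in genes it was 1.05 to 1.08 in low, 0.962 to 1.02 in standard and 0.969 to 0.994 in high arginine. The voom alternative used the same library sizes. Unused per-sample columns numbered 0.

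Genes with at least 1 FPKM in at least 3 of 9 libraries were kept (12300). Values were analysed as log2(FPKM + 1), which understates changes of low genes, with limma 3.58.1 in R 4.3.3: 1 fit of all 9 libraries, group as the only term, 6 residual degrees of freedom, a trended prior variance, two-sided p-values with Benjamini-Hochberg adjustment across the genes tested, threshold 0.05 and no fold threshold. Members were read from that fit. The fit was tried on simulated data with far fewer changed genes than were called here, which checks the code and not the results. Motifs, shares and exact tests used Python 3.11.15 with scipy 1.17.1.

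Members and lists were chosen with earlier results of these data known. By rule, each class's called members with the smallest p in low against standard arginine, up to 4, and the 3 transcription factors were given in full. From the other lysosomal lists, the 3 largest rises and falls among called genes were to be named, of which 1 is not reported here. Atp6v0c, Lamp1, Npc1 and Psap were added after their values were seen. The deviations of same-numbered libraries from their group means correlated over 0.1 in 3 of 3 pairs of low and high (0.153 to 0.243), 1 of 3 of low and standard and 2 of 3 of standard and high libraries. The pairing, a hint from the values and not stated in the labels, was therefore considered for high against low arginine alone. In every contrast the main counts and values come from the fit without the replicate block. For high against low arginine the value with the block, fitted over all 9 libraries, is printed where it changes a call. In the other contrasts the block is only 1 of the alternatives. Alternatives were a pseudocount of 0.1, no filter, a mean FPKM of at least 5, TPM, quantile normalization, only the 6 libraries compared, array weights, a replicate block, voom on rebuilt reads and leaving out each library. Removal of a GC and length trend was added after seeing the data.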

Additional observations from a re-analysis of the deposited data

How the results depend on the processing

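In low against standard arginine, 30 to 39 members were called lower under every alternative run, against 36 in the values reported, and 1 was called higher except in TPM and after quantile normalization (5 each) and with array weights, voom weights, the replicate block or the GC and length trend removed (2 each). Leaving out 1 library at a time gave 34 to 36 lower and 1 higher. In high against low arginine, 1 member was lower, but 5 were in TPM and after quantile normalization, 2 with array weights and 3 with the replicate block. Higher members numbered 27 (quantile normalization) to 39, against 36 reported. Leaving out 1 library gave 0 to 2 lower and 33 to 37 higher. In high against standard arginine 0 were called higher or lower except with array weights (1 higher, 3 lower), and 0 in each direction when a library was left out. With the replicate block, limma called 41 members between low and standard, 0 between high and standard and 42 between high and low arginine. Over all genes, calls in high against standard arginine ran from 0 to 713 higher and 0 to 610 lower, the highest with array weights, and with a mean FPKM of at least 5 where 7426 genes were tested and not 12300, they came to 2328 higher in low against standard (3723 as reported) and 2190 lower in high against low arginine (3594 as reported). After quantile normalization 5 members changed sign in low against standard arginine: Psap (0.13), Lamp1 (0.0457), Atp6v1f (0.16), Atp6v1a (0.0034) and Atp6v1c1 (0.006), of which Psap and Atp6v1f were called higher. In high against low arginine Psap (-0.21) and Atp6v1f (-0.19) changed sign and were called lower. The cause was not tested. The fewest reads of a tested member in any library were 152.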

Other observations

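High replicate 3 held the lowest value of its group in 27 of the 49 tested members, and standard replicate 3 did so in 35. The cause was not tested.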
